A study of Mus musculus with 6 samples.

Results

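A set of 10 genes of plasma cells and of the secretory pathway was followed through a mouse model of B-cell acute lymphoblastic leukemia: Xbp1, Prdm1, Irf4, Sdc1, Igj, Edem1, Creb3l2, Derl3, Fkbp11 and Slamf7. They were taken by symbol from a table of read counts, and all 10 were found among its 33924 genes. The table holds 3 groups of 2 RNA-seq libraries each. Leukemia 1 and leukemia 92 are primary leukemias with the genotype Mll-Af4/ N-RasG12D, and the reference group is wildtype pro-B cells of bone marrow that were sorted as B220+, CD43+ and IgM-. For the leukemias, c-Kit+ Sca1+ lineage-depleted marrow cells of Mll-Af4 mice aged 6 to 8 weeks received MSCV-cre-IRES-TdTomato and then an N-RasG12D retrovirus. A dose of 250000 of these cells was injected into lethally irradiated recipients (900 rads) together with 200000 wildtype helper marrow cells, so normal marrow cells were present in the hosts. The labels give the pro-B cells as wildtype and do not give the age of those mice. They do not say whether leukemia cells were sorted from host cells before RNA was taken. The labels do not say whether the 2 libraries of a group came from separate animals. P-values of fits that take each library as a unit therefore measure the spread between these libraries, which may be technical. In the test of both leukemias together, the 2 libraries of each leukemia were summed. Its p-values measure the spread between the 2 leukemias and between the 2 pro-B libraries.

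Plasma cells are the antibody-secreting end stage of the B lineage. The transcription factors IRF4 and BLIMP1 (Prdm1) turn off the B-cell program and start the plasma cell program, and XBP1, activated when the sensor IRE1 (Ern1) splices its mRNA, enlarges the endoplasmic reticulum (ER) and its folding and disposal machinery. Pro-B cells lie at the other end of the lineage and do not secrete antibody, but IRF4 and XBP1 transcripts are also made by other lymphoid, myeloid and dendritic cells. Gene-level counts do not separate spliced from unspliced Xbp1 mRNA.

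The libraries held 22153444 to 27444759 gene counts. Values below are CPM, counts scaled to a common library size after TMM, a correction for library composition, and 3 counts in a library correspond to 0.109 to 0.135 CPM before that scaling. Dntt, the terminal transferase of early B cells, stood at 970 and 604 CPM in pro-B cells and at most 1.11 CPM in leukemia. Replicate 2 of leukemia 1 stood apart from replicate 1. A list of 10 granulocyte markers summed to 16110 CPM there against 174 CPM in replicate 1, 763 and 437 CPM in leukemia 92 and 418 and 442 CPM in pro-B cells. With edgeR, 0 of these 10 markers were called in leukemia against pro-B cells, where 9.54% of all genes were called higher and 10.7% lower. Before adjustment 4 were higher at p under 0.05 (0 without that library), beside 19.6% of all genes. Pro-B markers (10 genes) summed to 3853 to 5483 CPM over all libraries. Of these 10, 1 was called higher and 2 lower in leukemia, beside 9.54% and 10.7% of all genes. In leukemia 1 replicate 2, 4 Y-linked transcripts summed to 44.6 CPM, against 4.92 CPM in replicate 1 and 0 to 0.280 CPM elsewhere. Calls for the 10 genes and the named genes of other lists are therefore also given without each library of leukemia 1 where leaving it out changed them. In bulk RNA, fewer cells of a type and less RNA per cell cannot be told apart. Tnfrsf17, the BCMA receptor that defines plasma cells, was near the limit of detection, with no read in leukemia 1 replicate 1 and at most 0.556 CPM, in pro-B replicate 1. A list of 6 plasma cell markers, Tnfrsf17 included, summed to 396 and 431 CPM in pro-B cells. It summed to 231 and 635.5 CPM in leukemia 1 and to 177 and 215 CPM in leukemia 92. Mzb1, another of the 6, had 196 and 190 CPM in pro-B cells. In leukemia 1 it had 220 and 475 CPM, and in leukemia 92 it had 169 and 209 CPM. The others, Sdc1, Igj, Derl3 and Prdm1, are among the 10 genes. The 10 genes are a set defined by name, and whether plasma cells were present in any library was not tested.

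Both leukemias were compared with pro-B cells to ask how the leukemic B-lineage cell differs from its normal counterpart. Of the 10 genes, Edem1 rose and Sdc1 and Creb3l2 fell, while the other 7 did not pass the test. This test used counts summed per leukemia, 2 leukemias against 2 pro-B libraries, with edgeR's quasi-likelihood test and Benjamini-Hochberg adjustment over 15280 genes, and called an adjusted p under 0.05. Over all genes tested, 9.54% were called higher and 10.7% lower, so 1 of 10 higher and 2 of 10 lower are small counts against a background of like size. Before adjustment, 1 of the 10 was higher and 3 were lower at p under 0.05, beside 19.6% and 19.2% of all genes. The median log2 change of the 10 genes was -0.55, against 0.02 over all genes tested. By library, 1 gene had all 4 leukemia values above both pro-B values (23.4% of all genes did) and 4 genes had all 4 below (27.3% of all genes did). Without leukemia 1 replicate 2 the calls were 1 higher and 4 lower, the 4 being Sdc1, Creb3l2, Igj and Prdm1, beside 6.89% and 12% of all genes. With either pro-B library left out, edgeR called no gene in the whole table, and 2645 or 2650 genes had an unadjusted p under 0.05.

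**Figure D1:**
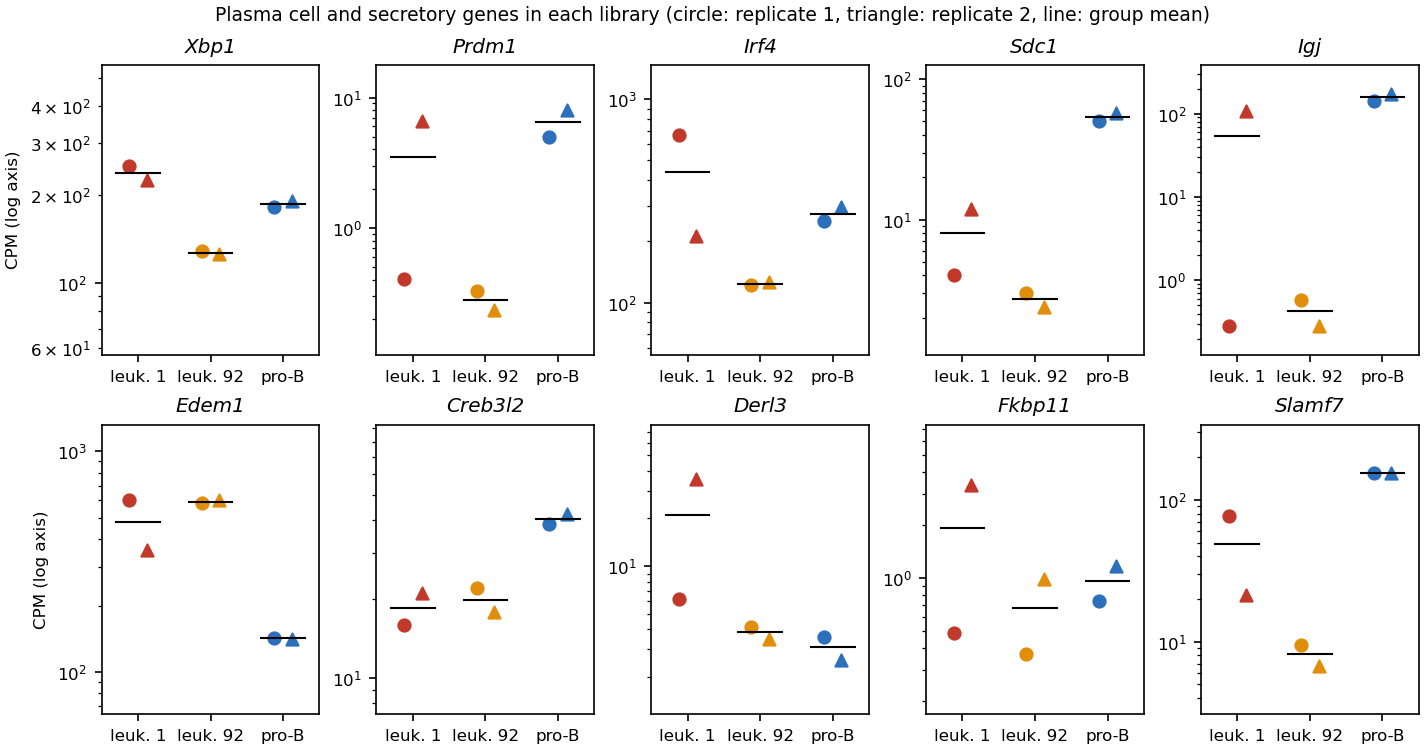
Expression of each of the 10 genes in CPM (log axis, a different range in each panel) in leukemia 1 (red), leukemia 92 (orange) and pro-B cells (blue). Circles are replicate 1, triangles replicate 2 and lines the mean of each group (n = 2). Edem1 lies at 356 to 601 CPM in the 4 leukemia libraries and at 142 and 143 CPM in pro-B cells, while Prdm1, Igj, Derl3 and Fkbp11 part the replicates of leukemia 1.

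Among the regulators, Xbp1 separated the leukemias from each other rather than both from pro-B cells. It had 251 and 224 CPM in leukemia 1, 128 and 125 CPM in leukemia 92, and 181 and 191 CPM in pro-B cells. The 3 pairs did not overlap, with leukemia 1 highest and leukemia 92 lowest. In a fit of all 6 libraries with 1 coefficient per group, Xbp1 was lower in leukemia 92 than in leukemia 1 by -0.90 in log2 units (SE 0.12, edgeR adjusted p = 0.040) and lower in leukemia 92 than in pro-B cells by -0.55 (SE 0.12, adjusted p = 0.027). Its change in leukemia 1 against pro-B cells was 0.35 (SE 0.12, adjusted p = 0.10), and over both leukemias it was -0.04 (SE 0.31, adjusted p = 0.94). Without leukemia 1 replicate 2 the change between the leukemias was -0.98 (adjusted p = 1.1e-05), and without replicate 1 it was -0.81 (adjusted p = 4.5e-05). With replicate 1 or 2 of leukemia 92 left out, the change was -0.91 or -0.87, and with either pro-B library left out it was -0.90. The call was lost in these fits, where edgeR called no gene in the whole table. Nothing particular to Xbp1 is read from this loss.

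Prdm1, which encodes the plasma cell repressor BLIMP1, was low throughout. It had 0.406 and 6.58 CPM in leukemia 1, 0.329 and 0.234 CPM in leukemia 92, and 4.96 and 8.04 CPM in pro-B cells. A total of 3 leukemia libraries, at 5 to 10 counts each, lay below both pro-B libraries, and leukemia 1 replicate 2 lay between them. The log2 change of leukemia against pro-B cells was -1.75 (SE 1.20, edgeR adjusted p = 0.35), and it was -4.24 without that library (SE 0.49, adjusted p = 0.018).

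Irf4, the interferon regulatory factor needed at high level for plasma cells, had 668 and 214 CPM in leukemia 1, 122 and 126 CPM in leukemia 92, and 252 and 294 CPM in pro-B cells. Leukemia 1 replicate 1 was the highest library and the 3 other leukemia libraries were below both pro-B libraries. Its log2 change was 0.01 with all libraries (SE 0.60, edgeR adjusted p = 0.99), -0.68 without leukemia 1 replicate 1 and 0.51 without replicate 2. Creb3l2, an ER-membrane transcription factor that is freed by proteolysis, had 16.0 and 21.1 CPM in leukemia 1, 21.999 and 17.8 CPM in leukemia 92, and 38.8 and 42.3 CPM in pro-B cells. Every leukemia library lay below both pro-B libraries. Creb3l2 fell by 1.06 in log2 units (SE 0.15, edgeR adjusted p = 0.023). The fitted difference between the leukemias was smaller than its SE (log2 change 0.10, SE 0.20, edgeR adjusted p = 0.79).

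Of the surface antigens, Sdc1 fell in leukemia and Slamf7 did not pass the main test over both leukemias. Sdc1 encodes syndecan-1, the CD138 antigen used to sort plasma cells and also present on early B-lineage cells. It had 4.02 and 11.98 CPM in leukemia 1, 3.002 and 2.38 CPM in leukemia 92, and 50.6 and 57.2 CPM in pro-B cells. No leukemia library came near the pro-B pair, and leukemia 1 replicate 2 was the highest of the 4. Sdc1 fell by 3.31 in log2 units (SE 0.58, edgeR adjusted p = 0.034). Its change was -2.87 without leukemia 1 replicate 1 (adjusted p = 0.093) and -4.01 without replicate 2 (adjusted p = 0.0091). Each leukemia on its own gave a call against pro-B cells in the 6-library fit, with changes of -2.75 for leukemia 1 (SE 0.54, adjusted p = 0.030) and -4.32 for leukemia 92 (SE 0.59, adjusted p = 0.0086).

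Slamf7, the CS1 receptor of plasma cells that NK cells, macrophages and plasmacytoid dendritic cells carry as well, was at 155 and 155 CPM in pro-B cells. It had 77.0 and 21.3 CPM in leukemia 1 and at 9.54 and 6.78 CPM in leukemia 92, so all 4 leukemia libraries lay below the pro-B pair and the leukemias did not overlap. With both leukemias together the log2 change of -2.49 did not pass (SE 0.87, edgeR adjusted p = 0.12), and it was -1.90 without leukemia 1 replicate 2 (SE 1.06, adjusted p = 0.29) and -3.38 without replicate 1 (SE 0.53, adjusted p = 0.039). Slamf7 over both leukemias was called lower with DESeq2 (adjusted p = 0.0029). The replicate block (log2 change -3.10, edgeR adjusted p = 0.020) and the 3-group fit (-2.95, edgeR adjusted p = 0.014) called it lower too. Both of these fits take each library as a unit. In the 6-library fit Slamf7 fell in leukemia 92 against pro-B cells (log2 change -4.25, SE 0.69, edgeR adjusted p = 0.013). The change in leukemia 1 was -1.66 (SE 0.62, adjusted p = 0.13), and the difference between the leukemias was -2.59 (SE 0.65, adjusted p = 0.099).

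Markers of other cells moved with these falls. Plasmacytoid dendritic markers (8 genes) summed to 2674 and 3040 CPM in pro-B cells and to 354 to 464 CPM in leukemia. Siglech, a defining gene of that cell type, stood at 1369 and 1545 CPM in the pro-B libraries against 15.0 to 33.9 CPM in leukemia, and Klk1 had at most 0.0467 CPM in leukemia. Of the 8 markers 5 were called lower in leukemia, beside 10.7% of all genes, and Siglech alone made up much of the pro-B sum. Among the 3 that did not pass were Cox6a2 and Pacsin1. Cox6a2 ranged from 35.0 to 94.8 CPM over the leukemia libraries against 34.04 and 44.7 CPM in the pro-B pair, and Pacsin1 in leukemia 92 (116 and 119 CPM) overlapped pro-B cells (102 and 119 CPM). NK and T cell markers (10 genes) summed to 415 and 394 CPM in pro-B cells and to 5.16 to 56.4 CPM in leukemia. Of these 10, 5 were called lower, and 8 without leukemia 1 replicate 2, beside 10.7% and 12% of all genes. The sum of macrophage and monocyte markers (7 genes) went the other way, from 453 and 460 CPM in pro-B cells to 534 to 2719 CPM in leukemia. Of these 7, 4 were called higher, and 2 without leukemia 1 replicate 2, beside 9.54% and 6.89% of all genes. The members did not move alike. Csf1r rose from 3.56 and 5.27 CPM to 138 to 464 CPM. Ccr2 in leukemia 1 (219 and 173 CPM) lay below pro-B cells (281 and 277 CPM), and in leukemia 92 above them (440 and 352 CPM). Cd68 in leukemia 1 replicate 1 (40.8 CPM) also lay below the pro-B pair (63.4 and 77.3 CPM). Ncr1, an NK receptor, was at 63.9 and 59.6 CPM in pro-B cells and had no read in 3 of the leukemia libraries. The T cell genes Cd3e and Cd3g went the other way in leukemia 1 replicate 2. Cd3e had 3.85 CPM there against 2.67 and 1.91 CPM in pro-B cells, and Cd3g had 4.88 against 3.41 and 4.603 CPM. Both lay below the pro-B pair in the other leukemia libraries. The rest of the NK and T list lay below that pair in every leukemia library. The part of these cells in the values of Slamf7, Sdc1, Igj, Irf4 and Prdm1 was not tested.

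The antibody cargo gene had the widest range. Igj encodes the J chain, which joins IgM and IgA into polymers. It had 0.285 and 107 CPM in leukemia 1, which are 7 and 2881 counts, at 0.576 and 0.280 CPM in leukemia 92, and at 141 and 173 CPM in pro-B cells. The highest library exceeded the lowest by 617-fold. Leukemia 1 replicate 2 was the only leukemia library within a factor of 1.47 of the pro-B mean, and the other 3 held 6 to 14 counts each. The log2 change of -2.51 with all libraries did not pass (SE 1.87, edgeR adjusted p = 0.39), whereas without leukemia 1 replicate 2 it was -8.69 (SE 0.34, adjusted p = 0.0068).

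Light and heavy chain constant genes, chosen after their values were seen, were examined as well. Igkc, the kappa constant region, had 1.22 and 193 CPM in leukemia 1, 6.25 and 4.95 CPM in leukemia 92, and 344 and 495 CPM in pro-B cells. Iglc2, a lambda constant region, had 0.163 and 3.96 CPM in leukemia 1, 0.288 and 0.187 CPM in leukemia 92, and 9.71 and 15.1 CPM in pro-B cells. Both were far higher in replicate 2 of leukemia 1 than in replicate 1, and highest in pro-B cells. Iglc3, a second lambda region, was also highest in pro-B cells (56.3 and 73.4 CPM) but lower in replicate 2 of leukemia 1 than in replicate 1 (3.48 against 5.24 CPM), with 17.1 and 13.2 CPM in leukemia 92. Ighm, the mu heavy chain, varied less, with 1769 and 3053 CPM in leukemia 1, 1715 and 1880 CPM in leukemia 92, and 3257 and 3417 CPM in pro-B cells. Reads of closely related constant and lambda regions cannot be assigned with certainty.

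The ER machinery split. Edem1, a mannosidase-like lectin that hands misfolded glycoproteins to degradation and a known XBP1 target, had 601 and 356 CPM in leukemia 1, 581 and 600 CPM in leukemia 92, and 143 and 142 CPM in pro-B cells. All 4 leukemia libraries lay above both pro-B libraries, and leukemia 1 replicate 2 was the lowest of the 4. Edem1 rose by 1.91 in log2 units (SE 0.18, edgeR adjusted p = 0.015), and by 2.06 without leukemia 1 replicate 2 (adjusted p = 0.0088). In the 6-library fit the rises were 1.75 for leukemia 1 (SE 0.27, adjusted p = 0.017) and 2.05 for leukemia 92 (SE 0.27, adjusted p = 0.0079), and the leukemias were 0.30 apart (SE 0.26, adjusted p = 0.51). Xbp1 itself was below the pro-B level in leukemia 92, where Edem1 stood at 4.15 times the pro-B mean.

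The Edem1 paralogs, chosen after their values were seen, did not pass the test. Edem2 had 38.9 and 67.7 CPM in leukemia 1, 64.6 and 66.1 CPM in leukemia 92, and 70.8 and 76.8 CPM in pro-B cells (log2 change -0.30, SE 0.17, edgeR adjusted p = 0.28). Edem3 had 136 and 42.0 CPM in leukemia 1, 86.8 and 79.1 CPM in leukemia 92, and 106 and 117 CPM in pro-B cells (log2 change -0.38, SE 0.12, adjusted p = 0.099). Apart from Edem3 in leukemia 1 replicate 1, no leukemia library of either gene lay above the pro-B pair.

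Derl3, a derlin of the ER disposal channel that is typical of secretory cells, had 6.26 and 35.5 CPM in leukemia 1, 4.15 and 3.51 CPM in leukemia 92, and 3.59 and 2.57 CPM in pro-B cells. Leukemia 1 replicate 2 was the highest library, and leukemia 92 replicate 2 lay between the pro-B values. The log2 change was 2.02 (SE 0.89, edgeR adjusted p = 0.19) and 0.70 without that library (SE 0.42, adjusted p = 0.31). Its paralogs Derl1 and Derl2, also chosen after their values were seen, stood at 149 to 197 CPM and 59.4 to 75.3 CPM in leukemia against 109 and 110 CPM and 46.9 and 44.6 CPM in pro-B cells. Their log2 changes of 0.62 and 0.49 had edgeR adjusted p values of 0.0503 and 0.061. All 4 leukemia libraries of both genes lay above the pro-B pair.

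Fkbp11, a membrane-anchored peptidyl-prolyl isomerase of secretory cells, was barely detected in 5 libraries. It had 0.488 and 3.36 CPM in leukemia 1, 0.370 and 0.982 CPM in leukemia 92, and 0.741 and 1.17 CPM in pro-B cells, from 9 to 91 counts. Leukemia 1 replicate 2 was the highest library, and the other leukemia libraries overlapped the pro-B pair or lay below it. The log2 change of 0.46 did not pass (SE 0.67, edgeR adjusted p = 0.65) and was -0.71 without that library (SE 0.45, adjusted p = 0.34).

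The upstream sequences of Edem1, Derl3 and Sdc1 are shown because Edem1 was the gene that rose among the 10, Sdc1 had the largest called fall over both leukemias, and Derl3 holds the full form of the element searched for. Each run is the 250 bases before the gene's start, 5′ to 3′ on the gene's strand, from the RefSeq promoter table of build GRCm38.p6, while the submitters' processing notes name mm9 for the counts. All 10 genes had an entry in that table, Igj under its present symbol Jchain and Fkbp11 with 2 starts. Capitals mark matches on either strand to the ER stress element, CCAAT and CCACG with 9 unspecified bases between them, or to its box CCACG alone, which the full element contains.
Edem1 (chr6:108828391-108828640, + strand): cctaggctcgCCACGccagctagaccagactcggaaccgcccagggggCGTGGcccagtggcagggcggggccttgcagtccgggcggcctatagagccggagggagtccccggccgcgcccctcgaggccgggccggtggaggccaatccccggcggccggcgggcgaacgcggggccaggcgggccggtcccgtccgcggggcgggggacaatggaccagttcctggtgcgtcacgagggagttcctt
Derl3 (chr10:75893148-75893397, + strand): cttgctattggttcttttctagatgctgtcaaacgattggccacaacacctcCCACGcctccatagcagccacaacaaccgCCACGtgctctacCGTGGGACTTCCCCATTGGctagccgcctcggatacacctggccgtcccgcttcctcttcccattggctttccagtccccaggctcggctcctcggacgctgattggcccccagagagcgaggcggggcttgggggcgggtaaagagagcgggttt
Sdc1 (chr12:8771146-8771395, + strand): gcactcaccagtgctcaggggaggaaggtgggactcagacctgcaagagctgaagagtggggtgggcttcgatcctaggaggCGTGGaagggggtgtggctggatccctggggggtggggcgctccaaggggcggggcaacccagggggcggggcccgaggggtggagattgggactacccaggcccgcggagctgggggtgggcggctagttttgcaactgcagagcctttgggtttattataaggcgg
The Derl3 sequence holds the full element on the opposite strand, as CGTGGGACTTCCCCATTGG from 156 to 138 bases before the start, and 2 further boxes. The full element occurs in 37 of 32851 promoter windows of this length (0.113%), and among the 10 genes in Derl3 alone. Edem1 holds 2 boxes and Sdc1 holds 1. The box alone or within the element occurs in 28.3% of all windows and in 6 of the 10 genes. The core TGACGTG, bound by XBP1 and ATF6 (1.65% of windows), and GAAA repeated after 2 unspecified bases, a form bound by IRF factors and BLIMP1 (2.98% of windows), were searched on both strands and have no match in these windows of the 10 genes.

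Set side by side, the comparisons of each leukemia with pro-B cells share the same 2 pro-B libraries. In leukemia 92, Edem1 rose and Xbp1, Sdc1, Creb3l2 and Slamf7 fell, that is 1 and 4 of 10 genes, where the same calls took in 14.7% and 16.7% of 14979 genes. The median log2 change of the 10 genes was -1.08, against -0.04 over all genes. The largest fitted values were those of Igj and Prdm1. DESeq2 called both lower (adjusted p = 0.00022 and 0.0016), and 6 of the 10 in all, beside 21.3% of all genes. In the edgeR fit, -8.48 for Igj (SE 2.69, edgeR adjusted p = 0.070) and -4.50 for Prdm1 (SE 1.40, edgeR adjusted p = 0.067) did not pass. With leukemia 1 replicate 1 or replicate 2 removed from that fit, which narrows the shared estimate of the spread, 7 of the 10 were called lower, beside 35.9% and 38.5% of all genes. With 1 library of leukemia 92 or of pro-B cells removed, that group held 1 library and all calls among the 10 genes were lost. Far fewer genes of the whole table passed in these fits as well, so nothing particular to the 10 is read from this loss. Over all libraries left out in turn, Edem1 kept a log2 change of 1.99 to 2.06 and Sdc1 one of -4.54 to -4.20.

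In leukemia 1, Edem1 rose and Sdc1 and Creb3l2 fell, against 9.55% and 10.7% of all genes. The median log2 change of the 10 genes was -0.27, against 0.05 over all genes. Which of the 10 genes were called depended on which library stood for leukemia 1. With replicate 2 alone, Xbp1, Edem1, Derl3 and Fkbp11 were called higher and Irf4, Sdc1, Igj, Creb3l2 and Slamf7 lower. With replicate 1 alone, Xbp1, Irf4, Edem1 and Derl3 were called higher and Prdm1, Sdc1, Igj, Creb3l2 and Slamf7 lower. In both of these fits the lone library is assumed to vary like the other groups, and 28.4% to 32.7% of all genes were called in each direction. With a library of another group left out, that group held 1 library and all calls among the 10 genes were lost. Few or no genes of the whole table passed in these fits, so nothing particular to the 10 is read from this loss. Over all libraries left out in turn, Edem1 kept a log2 change of 1.31 to 2.035. Sdc1 kept one of -3.78 to -2.18 and Creb3l2 one of -1.39 to -0.95.

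**Figure D2:**
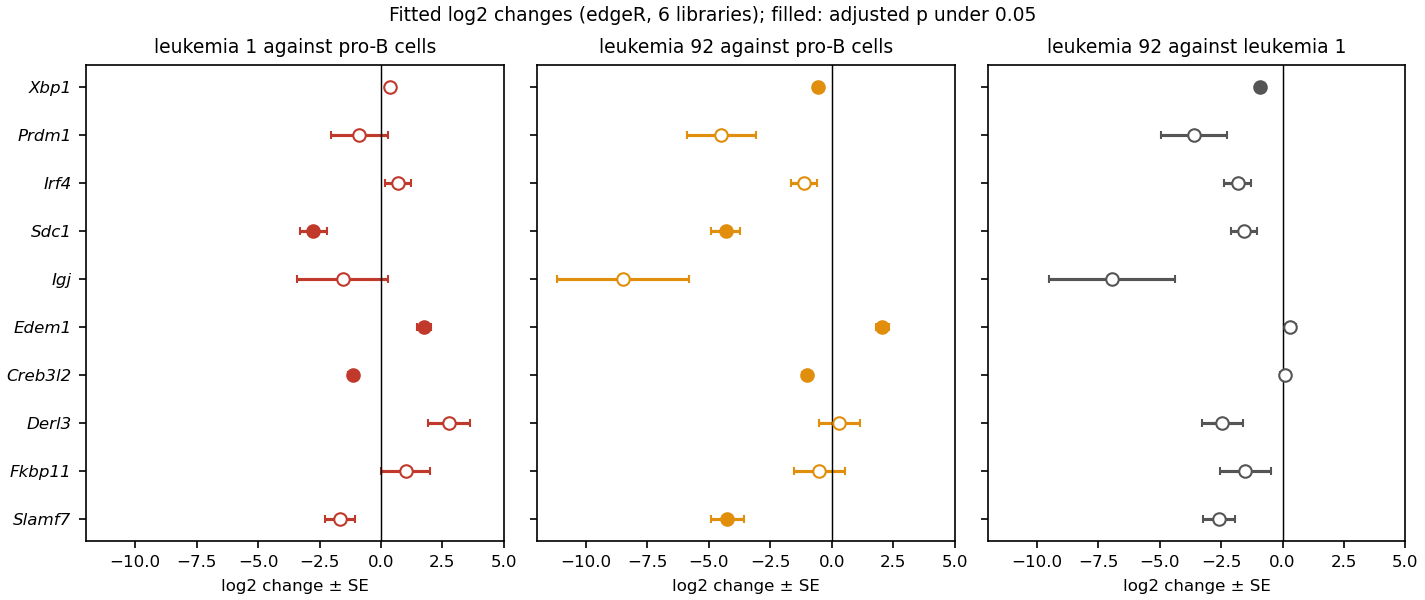
Fitted log2 changes with standard errors for the 10 genes in leukemia 1 against pro-B cells, leukemia 92 against pro-B cells and leukemia 92 against leukemia 1, from 1 edgeR fit of 6 libraries. Filled points have an adjusted p under 0.05. Edem1 lies to the right of 0 in both comparisons with pro-B cells (1.75 and 2.05), and Xbp1 is the gene with a filled point between the leukemias (-0.90).

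Leukemia 92 was then set against leukemia 1 directly. Xbp1 fell and the other 9 genes did not pass, where 1.82% of all genes were called higher and 1.27% lower. Before adjustment, 7 of the 10 were lower and 0 higher at p under 0.05 (12.9% and 12.2% of all genes), with fitted log2 changes from -6.93 for Igj to -0.90 for Xbp1. By library, 6 of the 10 had both leukemia 92 values below both leukemia 1 values, as did 25.8% of all genes, and 25.4% had both above. Without leukemia 1 replicate 2, 5 were called lower: Xbp1, Irf4 (-2.43), Slamf7 (-3.23), Derl3 (-0.70) and Sdc1 (-0.57). Without replicate 1, 8 were called lower and Edem1 higher (0.74, adjusted p = 7.4e-05). In these fits 26% to 27.3% of all genes were called lower. With any library of leukemia 92 or of pro-B cells left out edgeR called no gene, and 1552 to 2303 genes had an unadjusted p under 0.05.

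The replicates of leukemia 1 differed in most of the 10 genes, and this is a comparison of 2 libraries with no replicate check. Igj was 374-fold higher in replicate 2 (95% exact counting interval 181 to 932), Prdm1 16.2-fold (8.60 to 34.4), Fkbp11 6.90-fold (3.76 to 13.8), Derl3 5.68-fold (4.78 to 6.77) and Sdc1 2.98-fold (2.37 to 3.77). In the other direction, Slamf7 was 3.62-fold higher in replicate 1 (3.29 to 3.98), Irf4 3.13-fold (3.03 to 3.22) and Edem1 1.69-fold (1.64 to 1.73). A rise of at least 4-fold in replicate 2 was seen in 4 of the 10 genes and in 12.2% of all genes, and a fall of that size in 0 of 10 and 3.12%. In pro-B cells no gene of the 10 differed by more than 1.62-fold between replicates. Outside the 10, the constant chain Ighg2c was 6.78-fold higher in pro-B replicate 2 (6.09 to 7.57). Xbp1 was within 1.12-fold between replicates in all 3 groups. Beside this split stand the 16110 against 174 CPM of granulocyte markers, the Y-linked reads and the sum of 6 antibody constant chains (3273 against 1778 CPM), whose part in it was not tested.

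**Figure D3:**
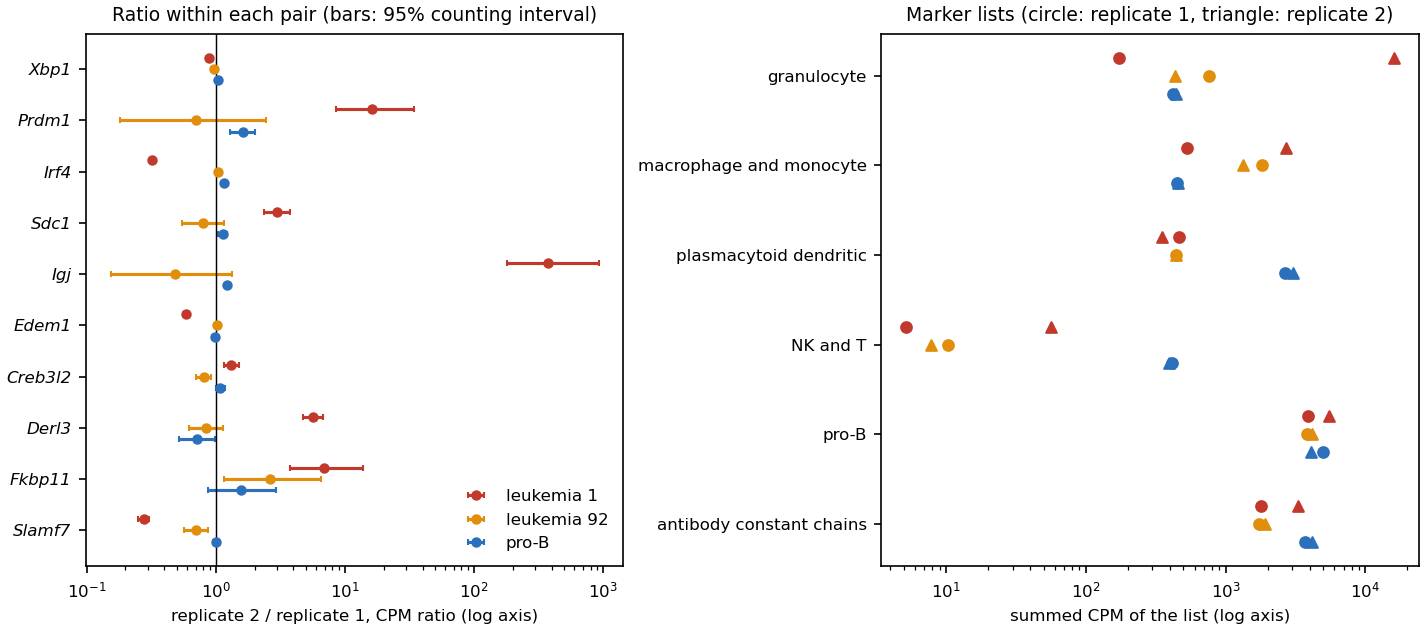
Left, ratio of replicate 2 to replicate 1 in CPM (log axis) for the 10 genes in each group, with 95% exact counting intervals. Right, summed CPM (log axis) of marker lists in each library, with circles for replicate 1 and triangles for replicate 2. In leukemia 1 the ratio runs from 0.277 for Slamf7 to 374 for Igj, and granulocyte markers sum to 174 and 16110 CPM.

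Levels can be compared between genes only per length. CPM per kilobase of exon, with lengths from GENCODE M21 standing in for the annotation of the counts, put Igj highest in pro-B cells at 113, followed by Xbp1 at 77.8, Irf4 at 57.2, Slamf7 at 33.9, Edem1 at 24.5 and Sdc1 at 17.1. Creb3l2 (5.73), Derl3 (2.33), Fkbp11 (1.30) and Prdm1 (1.21) came last, and the libraries of the last pair overlapped. In leukemia 92 Edem1 was highest at 102, followed by Xbp1 at 53.1 and Irf4 at 25.98, and the other 7 lay between 0.0524 for Prdm1 and 2.90 for Derl3. Derl3 and Creb3l2 (2.81) overlapped there, as did Fkbp11 (0.921) and Sdc1 (0.853). On this scale Igj went from the top of the order in pro-B cells to 0.307 in leukemia 92, the next to last place.

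The rest of the secretory pathway was described with 7 lists. In both leukemias against pro-B cells, medians of log2 change lay between -1.18 and 0.72. Beside the counts of these lists stand the shares of all genes, 9.54% called higher and 10.7% lower (6.39% and 6.99% without leukemia 1 replicate 1, 6.89% and 12% without replicate 2), so 1 or 2 calls in a list of 12 to 21 genes are near the background. Other plasma cell genes had the lowest median (-1.18), with 0 of 12 higher and 4 lower (1 without leukemia 1 replicate 1). Cd27, a TNF receptor family member of memory and plasma cells, fell from 16.0 and 15.4 CPM to 0.325 to 2.92 CPM (log2 change -3.53, edgeR adjusted p = 0.015), and Txndc5, an ER thioredoxin, fell by 1.43. Their adjusted p values were 0.057 and 0.056 without leukemia 1 replicate 1. Factors that hold B cells back from plasma cell differentiation in the textbook scheme went both ways, with 2 of 8 higher and 2 lower. Bach2, a repressor of Prdm1, fell from 289 and 334 CPM to 27.1 to 68.0 CPM (log2 change -2.95, adjusted p = 0.014), and Spib, an ETS factor, fell by 2.84. Bcl6, the germinal center repressor, rose from 15.9 and 15.8 CPM to 28.6 to 37.1 CPM (log2 change 1.03, adjusted p = 0.022), and the PU.1 gene, listed as Sfpi1, rose by 2.88. All 4 of these factors passed without either library of leukemia 1.

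The sensors of ER stress split as well. Ern1, the IRE1 sensor that splices Xbp1, fell from 88.1 and 103 CPM in pro-B cells to 21.9 and 19.2 CPM in leukemia 1 and 20.1 and 20.6 CPM in leukemia 92. All 4 leukemia libraries lay close together and far below the pro-B pair, with a log2 change of -2.22 (SE 0.14, edgeR adjusted p = 0.0085). Of 9 sensors and transducers tested, 3 rose (2 without leukemia 1 replicate 2, 0 without replicate 1), among them Eif2ak3, the PERK kinase (0.70), and Ppp1r15a (0.94), which reverses its signal and lay below the pro-B pair in leukemia 1 replicate 1 (58.7 CPM against 99.7 and 104 CPM). Neither Eif2ak3 nor Ppp1r15a passed without replicate 1 (adjusted p = 0.075 and 0.055) or without replicate 2 (adjusted p = 0.084 and 0.74), while Ern1 passed in both fits. ER chaperones had 1 of 21 higher, Ero1l (0.93), an oxidase of the ER, and 0 lower. Disposal genes had 1 of 13 higher, Sel1l (0.67), a subunit of the HRD1 ligase complex. Both of these calls were lost without leukemia 1 replicate 1, and 2 chaperone genes were called lower without replicate 2. Translocon genes had 1 of 20 higher, Ssr4 (0.91, not called without leukemia 1 replicate 2), and 1 lower, Tram1 (-0.73, not called without replicate 1). Transport from ER to Golgi had 0 of 21 higher and 2 lower, Lman1 (-0.72, adjusted p = 0.058 without leukemia 1 replicate 1) and Sec24d (-1.42, adjusted p = 0.197 without replicate 2).

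Between the leukemias, 2 of 21 ER chaperones and folding enzymes fell in leukemia 92, and the other 19 missed the threshold. Over the 21 tested the median log2 change was -0.89, against -0.08 over all genes. The median was -0.45 without leukemia 1 replicate 2 and -1.19 without replicate 1, against 0.02 and -0.04 over all genes. With all libraries and before adjustment, 14 of the 21 were lower and 0 higher at p under 0.05, beside 12.9% and 12.2% of all genes. The 2 were Dnajc3, an ER cochaperone that restrains PERK, at 193 and 203 CPM in leukemia 1 against 118 and 111 CPM in leukemia 92 (log2 change -0.79, SE 0.11, edgeR adjusted p = 0.043), and the lectin chaperone Canx at 854 and 902 against 510 and 525 CPM (log2 change -0.76, SE 0.11, adjusted p = 0.045). Without leukemia 1 replicate 2, 14 of 22 were called lower and 0 higher, beside 27.3% and 25.2% of all genes. Without replicate 1 the numbers were 19 lower and 1 higher, beside 26% and 24.5%. Hspa5, the BiP chaperone, chosen after its values were seen, had 1427 and 3282 CPM in leukemia 1, 818 and 942 CPM in leukemia 92, and 958 and 939 CPM in pro-B cells (log2 change between leukemias -1.42, adjusted p = 0.12). That change was -0.70 without leukemia 1 replicate 2 and -1.89 without replicate 1.

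A few genes of other lists moved with them. Herpud1, an ER stress gene of the disposal complex, had 234 and 208 CPM in leukemia 1, 92.6 and 86.3 CPM in leukemia 92, and 257 and 320 CPM in pro-B cells (log2 change between leukemias -1.31, SE 0.16, edgeR adjusted p = 0.034). Atf4, the factor downstream of PERK, had 763 and 642 CPM in leukemia 1, 331 and 364 CPM in leukemia 92, and 328 and 331 CPM in pro-B cells (log2 change -1.02, SE 0.14, adjusted p = 0.0400). Both genes were higher in both libraries of leukemia 1 than in leukemia 92. Id3 (-3.01), an inhibitor of E proteins, and Fam46c (-3.19), a poly(A) polymerase of plasma cells, were called lower too. Translocon and transport lists had 0 calls among 20 and 21 genes with edgeR. Before adjustment 8 and 5 genes were lower at p under 0.05 and 0 were higher. Without leukemia 1 replicate 2, 12 and 11 were called lower and 2 and 2 higher, and without replicate 1, 16 and 9 lower and 0 and 6 higher, in fits that called 24.5% to 27.3% of all genes in each direction. The genes of other lists named here passed without either library of leukemia 1, and none passed without a library of leukemia 92 or of pro-B cells.

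**Figure D4:**
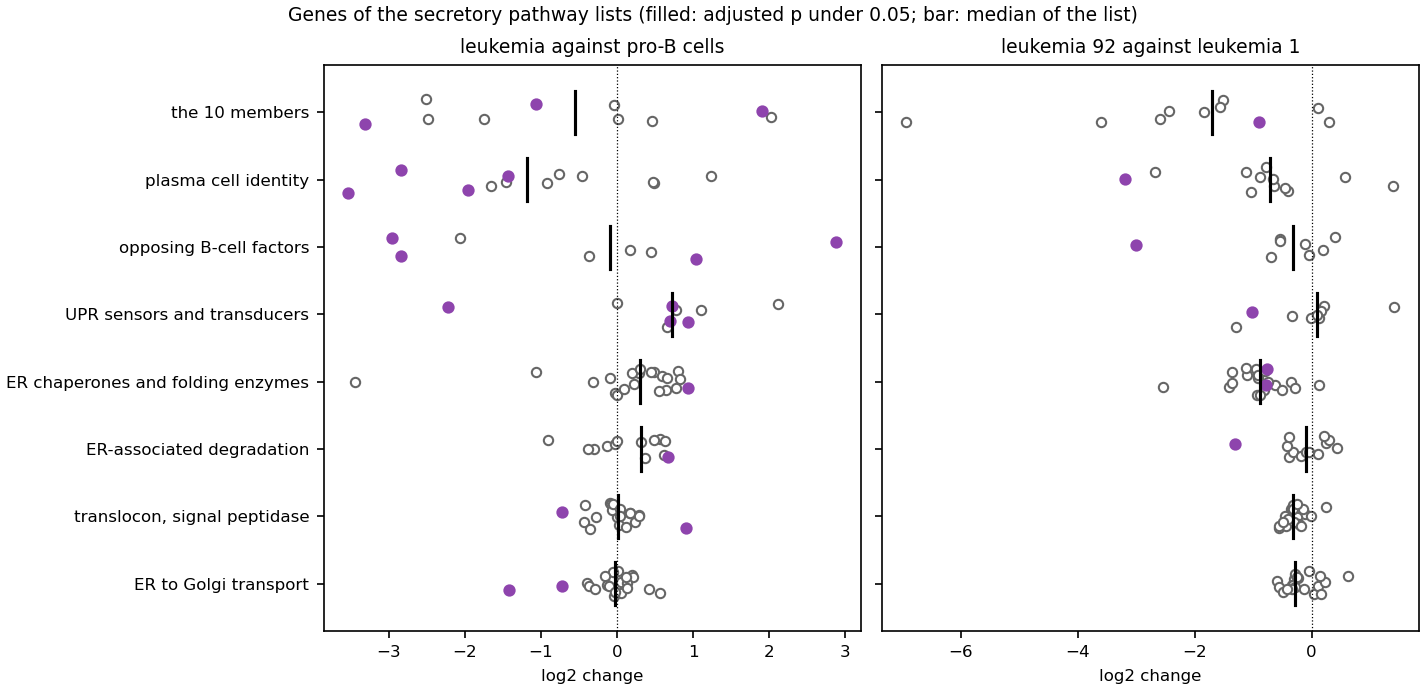
Log2 changes of the 10 genes and of 7 lists of the secretory pathway in both leukemias against pro-B cells (left) and in leukemia 92 against leukemia 1 (right). Each point is a gene, filled where the adjusted p is under 0.05, and bars are the medians. The chaperone list has a median of 0.30 on the left and -0.89 on the right.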

How the data were processed

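Total RNA of 6 libraries was sequenced after RNeasy extraction and TruSeq library preparation, per the labels' protocols. The deposited table holds whole-number read counts per gene and library. Per the submitters' processing notes, the tools were STAR 2.4, HTSeq 0.6.1 and DESeq2 and the build was mm9, with no role or order. No source used here gives the annotation or whether reads were counted by strand. The 5 entries that name no gene held 34.0% to 39.6% of the summed entries and were left out.

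The test was edgeR's robust quasi-likelihood test (edgeR 4.0.16, R 4.3.3) after TMM scaling and filterByExpr (minimum count 10), with Benjamini-Hochberg adjustment over all genes tested and a threshold of 0.05. Each SE is the log2 change divided by the root of its F. Leukemia against pro-B cells used counts summed per leukemia. Each leukemia against pro-B cells, and leukemia 92 against leukemia 1, came from 1 fit of 6 libraries. The procedure was tested on simulated data in which all groups varied alike. The real groups did not. The standard deviation of log2 differences between replicates was 1.33 in leukemia 1, 0.40 in leukemia 92 and 0.35 in pro-B cells. The simulation therefore cannot show how often calls are wrong in these data. Alternatives were DESeq2 1.42.0, RLE scaling, no filter, leaving out each library, a replicate block and, for both leukemias together, a 3-group fit.

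The 10 genes and the lists were chosen with earlier results of these data known. Of each list, up to 2 called genes per direction with the smallest p are named, and other genes are marked as chosen after their values were seen. All 10 genes passed the filter. Counting intervals (exact, 95%) and floors (3 counts) cover counting error only. Promoter windows came from RefSeq (GRCm38.p6). In GENCODE M21, Slamf7 alone of the 10 overlaps other genes, an antisense RNA and a miRNA, and with the strand setting unknown their reads could not be told apart from its own.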

Additional observations from a re-analysis of the deposited data

Results flagged for a closer look

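For each of the 10 genes the CPM of the 4 leukemia libraries were examined for a library far from the other 3, by Dixon's ratio of the gap to the range against the 95% critical value for 4 libraries. Chance flags about 1 in 20 such groups (5%). Among all 14979 genes of the 6-library fit 14.9% passed that value, and among the 10 genes 6 did. The replicates of leukemia 1 differed across the whole table, and nothing particular to these genes is read from the count. Leukemia 1 replicate 2 was the high library for Igj (ratio 0.997), Prdm1 (0.973), Derl3 (0.914) and Sdc1 (0.8291), and the low library for Edem1 (0.918). Leukemia 1 replicate 1 was the high library for Irf4 (0.831). Sdc1 and Irf4 passed the critical value by a small margin.

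The change of Xbp1 differed between the leukemias: it was 0.35 in leukemia 1 and -0.55 in leukemia 92 against the same pro-B libraries, and the difference of -0.90 passed the test (edgeR adjusted p = 0.040, lower in 2 of 2 libraries).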

How the results depend on the processing

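DESeq2 called 2335 genes higher in leukemia against pro-B cells, 1322 higher and 1345 lower in leukemia 92 against leukemia 1 (7 of the 10 genes lower), and 2286 higher in leukemia 1 against pro-B cells (3 of the 10 higher). The 3-group fit called 2605 genes lower in leukemia against pro-B cells. Replicate numbers do not pair the samples: deviations of same-numbered libraries correlated at -0.10, 0.08 and -0.03 between groups. The replicate block gave 0 calls in either direction between the leukemias (0 of the 10 genes; Xbp1 -0.90, edgeR adjusted p = 0.12; 3042 genes at an unadjusted p under 0.05). With the block 1597 genes and 2 of the 10 were lower in leukemia 92 against pro-B cells, and 701 genes were higher, 738 lower and 0 of the 10 lower in leukemia 1 against pro-B cells, where edgeR without adjustment had 3 of the 10 lower.

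Leaving out a library moved the number of genes called to 0 to 1544 higher and 0 to 1725 lower for leukemia against pro-B cells, 0 to 3909 and 0 to 4224 for leukemia 92 against leukemia 1, 279 to 4994 and 190 to 5965 for leukemia 92 against pro-B cells, and 0 to 4580 and 0 to 5061 for leukemia 1 against pro-B cells. For the 10 genes, in the same order, the ranges were 0 to 1 higher and 0 to 4 lower, 0 to 1 and 0 to 8, 0 to 1 and 0 to 7, and 0 to 4 and 0 to 5. 

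These log2 changes turned sign. Irf4 in leukemia against pro-B cells was -0.0086 with DESeq2, -0.0085 with RLE scaling, -0.30 with the replicate block and -0.22 in the 3-group fit, and Fkbp11 was -0.054 with the block. When libraries were left out, the ranges in that comparison were -0.091 to 0.00996 for Xbp1, -0.68 to 0.51 for Irf4 and -0.71 to 1.07 for Fkbp11. Between the leukemias they were -7.90 to 0.61 for Igj (-6.93 with all libraries), -0.024 to 0.74 for Edem1, -0.073 to 0.32 for Creb3l2 and -2.34 to 0.44 for Fkbp11 (-1.52 with all libraries). In leukemia 1 against pro-B cells they were -4.02 to 0.012 for Prdm1, -0.36 to 1.25 for Irf4 and -1.001 to 1.81 for Fkbp11. Against pro-B cells Edem1, Sdc1 and Creb3l2 kept their direction in all alternatives run, for both leukemias together and for each. Slamf7, Igj and Derl3, which did not pass the main test over both leukemias, kept theirs too. The causes were not tested. Prdm1, Igj and Fkbp11 had 5 to 21 counts in every leukemia library but leukemia 1 replicate 2.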
